A study of Vitis vinifera with 6 samples.

Results

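The genes described here are 10 small heat shock protein genes on chromosome 13 of the grapevine, out of 29971 genes in the deposited expression table. They were listed by identifier, with earlier results of these data known. The list holds VIT_13s0019g02740, VIT_13s0019g02760, VIT_13s0019g02770, VIT_13s0019g02780, VIT_13s0019g02820, VIT_13s0019g02840, VIT_13s0019g02930, VIT_13s0019g03000, VIT_13s0019g03090 and VIT_13s0019g03160. Their assignment to tandem copies of class I small heat shock proteins came with the list. The expression table gives identifiers without names, and the reference gene table matched 0 of the 10, so the assignment was not checked against sequence, and neither sequences nor coordinates are given. The chromosome is read from the identifiers.

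Small heat shock proteins are chaperones that work without ATP. They assemble into oligomers, bind proteins that begin to unfold and keep them soluble until larger, ATP-dependent chaperones refold them. In plants the class I proteins act in the cytosol and nucleus. Their genes are among the most strongly heat-induced genes known, under the control of heat stress transcription factors, and several are also expressed in unheated developing tissue or under drought and oxidative stress.

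RNA-Seq was performed on 3 libraries each of the diploid ‘Jingyanjing’ (2X), a V. vinifera accession, and of an autotetraploid (4X) made with colchicine from its tissue culture plantlets. Both ploidies were grown in the same experimental vineyard under standard care, with no heat treatment described, and the 4X vines are those whose terminal buds cease growth and abscise. Each library was made from terminal buds of several vines mixed together, taken before abscission, and the temperature and the hour at sampling were not given in the sources used here. The 4X plants were propagated as several lines from this 1 accession, and which lines entered each pool is not given in the sources used here. Vines of both ploidies came from tissue culture. Ploidy and the colchicine treatment, with any culture particular to it, cannot be told apart.

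Values are FPKM, that is fragments per kilobase of transcript, scaled to the mapped fragments of the library, as deposited. Without counts in the table, the fragments behind a value are unknown. The depth implied by the smallest values of each library, relative to 2X replicate 1, ranged from 0.978 to 1.10, and the genes at or above 1 FPKM numbered 17816 to 18058 per library. The reference gene actin (VIT_04s0044g00580) lay between 1021 and 1292 FPKM, and the homeobox genes KNAP2 (VIT_18s0001g08380) and HAT22 (VIT_18s0001g08410), named in the study's primer table, were detected in all 6 libraries. Both were lower in every 4X library than in any 2X library, with mean ratios of 0.663 and 0.270, and neither was called (adjusted p = 0.195 and 0.124 from limma). HAT22 was at 3.72 FPKM in 4X replicate 1 and at 1.30 FPKM in each of 4X replicates 2 and 3. In a principal component analysis of all genes tested, 4X replicate 1 stood apart from the other 4X libraries, at -15.6 on the first component, near the 2X libraries between -22.8 and -18.6. On that component, with 38.1% of the variance, 4X replicates 2 and 3 lay at 39.9 and 37.1. On the second, with 21.4%, 2X replicate 1 and 4X replicate 2 were lowest, at -19.2 and -16.4, and 4X replicates 1 and 3 were highest, at 39.3 and 13.3.

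Values above 0 FPKM were listed for all 10 genes in every library. VIT_13s0019g02760, VIT_13s0019g02770, VIT_13s0019g02820 and VIT_13s0019g03090 were below 1 FPKM in some libraries. The study counted genes under 1 FPKM as not expressed. In 10 of 10 genes the highest and the lowest bud pool of 4X were farther apart, as a ratio, than the means of the ploidies. The same held for VIT_13s0019g02730, outside the list (1.34-fold between pools of 4X, ratio of the means 1.03). The share of all genes tested with this trait was not computed. In every gene the lowest 2X library was replicate 1 and the lowest 4X library was replicate 2. The order of libraries was looked for after the values were seen, and 13.3% of the 18119 genes tested had both of these libraries lowest. The contrast of 4X with 2X gave 0 calls among the 10 genes.

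VIT_13s0019g02780 was the most abundant copy, with a mean of 104.1 ± 69.4 FPKM (SD, n = 3) in 4X and of 99.7 ± 37.0 FPKM (SD, n = 3) in 2X. Its level in 2X replicates 1, 2 and 3 was 60.8, 104 and 134 FPKM. The corresponding values of 4X were 166, 29.3 and 117 FPKM. The highest and the lowest of the 6 libraries were thus both 4X, 5.68-fold apart, and the 2X libraries lay between them.

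VIT_13s0019g02930 and VIT_13s0019g03000 followed in abundance, and they had the widest range among the abundant copies. VIT_13s0019g02930 was listed at 8.59, 19.8 and 19.1 FPKM in 2X replicates 1, 2 and 3. In the 4X replicates it was at 35.9, 9.45 and 87.0 FPKM. For VIT_13s0019g03000 the 2X replicates gave 6.30, 12.7 and 13.3 FPKM and the 4X replicates 27.0, 7.15 and 71.4 FPKM. In both genes 4X replicate 3 was the highest library and 4X replicate 1 the next, whereas 4X replicate 2 lay within the range of 2X. Both had their lowest value in 2X replicate 1, and the ploidies overlapped. The ratio of VIT_13s0019g02930 to VIT_13s0019g03000 stayed between 1.22 and 1.56 in the 6 libraries while the levels themselves ranged over 10.1-fold and 11.3-fold. How reads that map to several near-identical copies were divided is not stated in the sources used here, so levels of single copies are uncertain where copies are alike.

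VIT_13s0019g02740 was the remaining copy above 10 FPKM on average. Its values were 10.1, 22.2 and 24.3 FPKM in the 2X replicates and 38.6, 8.55 and 30.0 FPKM in the 4X replicates. As in VIT_13s0019g02780, replicate 1 was the highest of the 4X libraries. VIT_13s0019g03160 was listed at 2.79, 8.63 and 10.01 FPKM in 2X and at 9.68, 3.49 and 12.2 FPKM in 4X. It had the smallest range of the 10 genes, 4.35-fold over all libraries, and its spread on the log2 scale was about the same in both ploidies.

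Lower levels were found for VIT_13s0019g02770, with 1.93, 3.17 and 5.91 FPKM in the 2X replicates and 7.80, 0.916 and 14.1 FPKM in the 4X replicates. VIT_13s0019g02840 had 2.75, 4.14 and 4.97 FPKM in 2X and 5.83, 1.39 and 11.4 FPKM in 4X. In both of these genes 4X replicates 1 and 3 lay above every 2X library, and 4X replicate 2 lay below every 2X library.

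The 3 copies with the lowest levels were VIT_13s0019g02820, VIT_13s0019g03090 and VIT_13s0019g02760. VIT_13s0019g02820 was at 0.820, 3.02 and 2.45 FPKM in the 2X replicates and at 4.24, 0.349 and 5.07 FPKM in the 4X replicates. VIT_13s0019g02760 had 0.354, 1.51 and 1.45 FPKM in 2X and 2.60, 0.116 and 1.90 FPKM in 4X, the widest range of the 10 genes at 22.5-fold. At such low levels a ratio of small values is imprecise. VIT_13s0019g03090 was the exception in 2X, where its 3 values of 0.930, 0.981 and 1.07 FPKM were nearly equal. In 4X the same gene had 1.44, 0.390 and 4.19 FPKM, so that the spread between pools appeared in 4X without a counterpart in 2X.

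**Figure D1:**
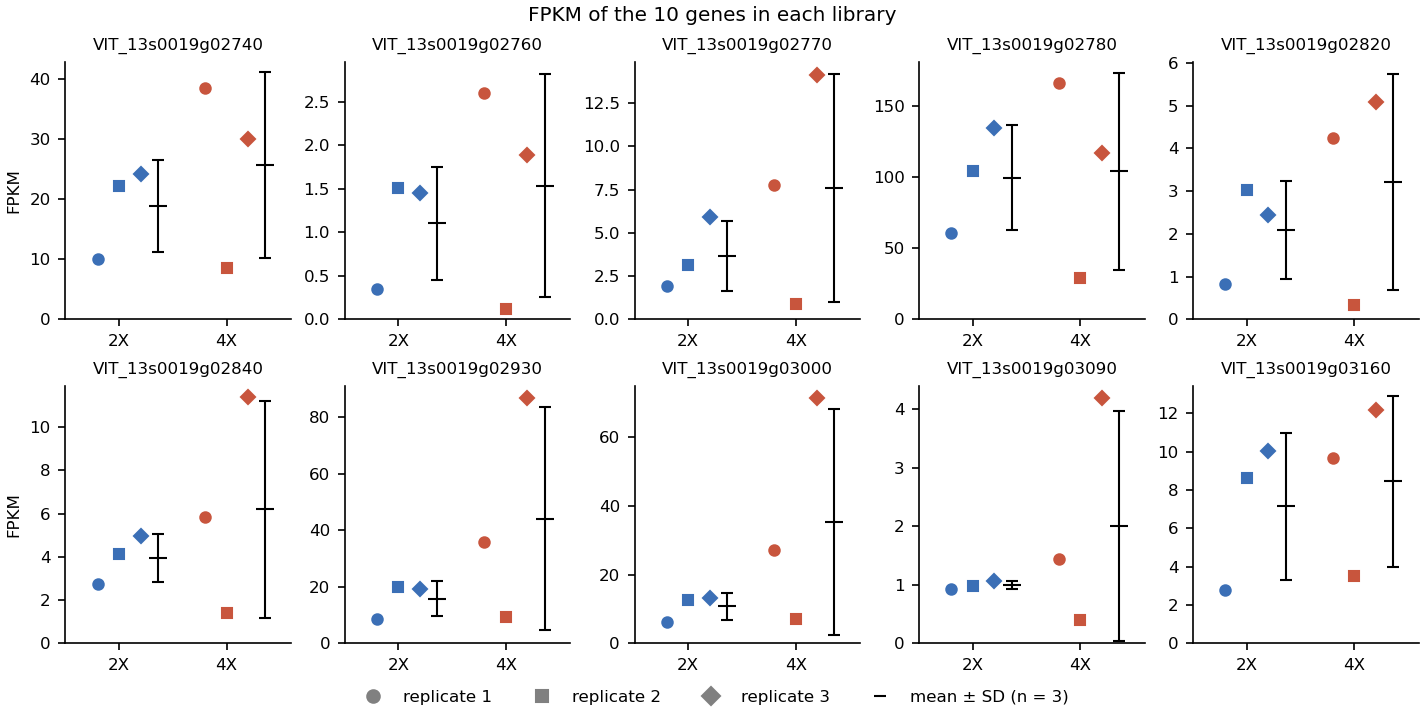
FPKM (vertical axes, separate scale in each panel) of the 10 genes in 2X and 4X, with 1 symbol per library and the mean ± SD of the 3 libraries in black. In every panel 4X replicate 2 is the lowest 4X library, and the range of 4X encloses or overlaps the range of 2X.

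The libraries kept nearly the same place in all copies. 4X replicates 1 and 3 were above the gene's own mean over 6 libraries in 10 of 10 genes, and 2X replicate 1 and 4X replicate 2 were below it in 10 of 10. The lowest library of all was 4X replicate 2 in 7 genes and 2X replicate 1 in 3 genes, namely VIT_13s0019g02930, VIT_13s0019g03000 and VIT_13s0019g03160. The highest was 4X replicate 3 in 7 genes and 4X replicate 1 in 3 genes, VIT_13s0019g02740, VIT_13s0019g02760 and VIT_13s0019g02780. Measured as log2(FPKM + 1), the median distance from the gene's own mean was -1.11 in 4X replicate 2 and -0.83 in 2X replicate 1. It was 0.72 in 4X replicate 1 and 1.06 in 4X replicate 3. Over all genes tested the same medians lay between -0.02 and 0.02, and actin was at 1070 and 1021 FPKM in 4X replicates 2 and 3.

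**Figure D2:**
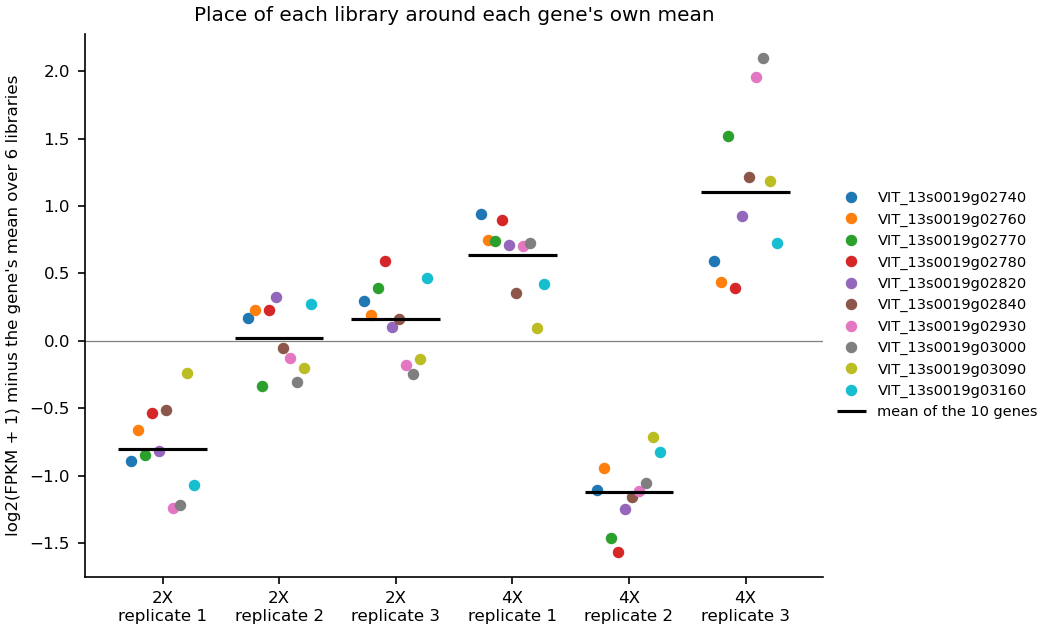
Difference of log2(FPKM + 1) from each gene's own mean (vertical axis) for the 6 libraries (horizontal axis), with 1 point per gene and the mean of the 10 genes as a black line. 2X replicate 1 and 4X replicate 2 lie below 0 for all 10 genes, and 4X replicates 1 and 3 lie above 0 for all 10.

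By these medians the 4X libraries farthest apart were thus replicates 2 and 3, which were close together on the first principal component of all genes. 4X replicate 1, which stood apart there, was on the high side with replicate 3. On the second component 2X replicate 1 and 4X replicate 2 were on the low side and 4X replicates 1 and 3 on the high side, as in the 10 genes. The extremes there were 2X replicate 1 and 4X replicate 1, whereas by the medians of the 10 genes they were 4X replicates 2 and 3. The relative depth of 4X replicate 2 was 1.10, the largest of the 6, and 18030 genes reached 1 FPKM in it. The part that temperature, sampling hour or RNA quality might have in these differences was not tested, and in RNA from whole buds fewer expressing cells and less RNA per cell cannot be told apart.

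The spread within a ploidy was wide compared with other genes. In 4X the SD of log2(FPKM + 1) over the 3 libraries ranged from 0.82 to 1.58 among the 10 genes, with a median of 1.20, whereas the median over the 18119 genes tested was 0.16. In 2X it ranged from 0.05 to 0.84 with a median of 0.59, against 0.15 over all genes tested. All 10 genes were above the 90th percentile of all genes in 4X and 8 of 10 in 2X, the exceptions being VIT_13s0019g03090 and VIT_13s0019g02840. The highest 4X library was 3.49-fold to 22.5-fold above the lowest, and a distance of at least 3-fold, a limit set after the values were seen, was found in 10 of 10 genes and in 5.09% of the genes tested. In 2X the distance was 1.15-fold to 4.25-fold. It was at least 2-fold in 8 genes, against 8.28% of the genes tested. The SD was larger in 4X than in 2X for 9 of the 10 genes, which was also so for 57.4% of all genes tested, and this difference between the ploidies was not tested.

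The median SD fell only when the library already seen to be lowest in its ploidy was left out. The SD then rests on fewer libraries, and the same fall was not computed for all genes. Without 2X replicate 1 the median SD in 2X was 0.11, and without 4X replicate 2 the median SD in 4X was 0.46. Leaving out any other library left it between 0.63 and 0.72 in 2X and between 1.27 and 1.46 in 4X. With a pseudocount of 0.1 in place of 1 the median in 4X was 1.58.

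Summed over the 10 genes, the level was 95.4, 180 and 217 FPKM in 2X replicates 1, 2 and 3 and 299, 61.1 and 354 FPKM in the 4X replicates. The means were 164 ± 62.3 FPKM (SD, n = 3) for 2X and 238 ± 156 FPKM (SD, n = 3) for 4X, a ratio of 1.45. The 2X libraries spanned 2.27-fold and the 4X libraries 5.79-fold, both more than the ratio of the ploidies. Without 4X replicate 2 the ratio was 1.99, and without 4X replicate 3 it was 1.10. No p is given for this sum because the genes were listed with earlier results of these data known.

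The composition of the sum also differed between pools. VIT_13s0019g02780 made up 55.6% to 63.7% of it in the 2X libraries and 4X replicate 1, 48.0% in 4X replicate 2 and 33.0% in 4X replicate 3. The share of VIT_13s0019g02930 and VIT_13s0019g03000 together was 14.9% to 18.0% in 2X, 21.0% and 27.2% in 4X replicates 1 and 2, and 44.7% in 4X replicate 3. These 2 copies summed to 26.6 ± 10.1 FPKM over the 2X libraries and to 79.3 ± 72.3 FPKM over those of 4X (SD, n = 3). Their ratio of 2.98 was 1.496 without 4X replicate 3 and 4.16 without 4X replicate 2. The remaining 8 copies summed to 138 ± 52.7 FPKM for 2X, whereas for 4X they summed to 159 ± 101 FPKM (SD, n = 3). For these 8 copies 4X replicate 1 was the highest library, with 236 FPKM against 196 FPKM in 4X replicate 3.

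**Figure D3:**
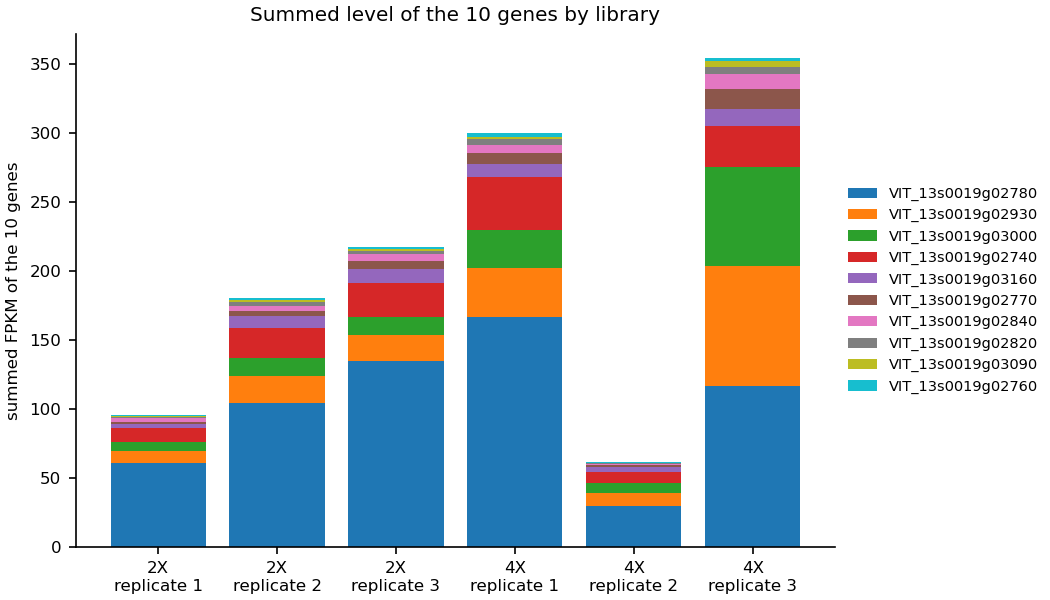
Summed FPKM (vertical axis) of the 10 genes in each of the 6 libraries, with the genes stacked in order of their mean level. The bars reach 61.1 FPKM in 4X replicate 2 and 354 FPKM in 4X replicate 3, and the share of VIT_13s0019g02930 and VIT_13s0019g03000 is largest in 4X replicate 3.

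Copies agreed closely with each other in this order of pools. Pearson's r of log2(FPKM + 1) between copies over the 6 libraries, given as a description with no p, had a median of 0.90 over the 45 pairs and ranged from 0.58 to 1.00. All copies share the same libraries, and alike copies may share reads, so the pairs are not independent. The highest values belonged to VIT_13s0019g02930 with VIT_13s0019g03000 and to VIT_13s0019g02740 with VIT_13s0019g02760, both 1.00 after rounding. The lowest was between VIT_13s0019g02780 and VIT_13s0019g03090. The median was between 0.85 and 0.93 with each library left out in turn. Without 4X replicate 2 the lowest pair was at 0.26, and with any other library left out the lowest pair was between 0.56 and 0.68.

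Whether the 10 genes differ between 4X and 2X was tested with limma on log2(FPKM + 1), two-sided, over the 18119 genes averaging 1 FPKM or more across libraries, with Benjamini-Hochberg adjustment of p. All 10 genes passed this limit on level. VIT_13s0019g03090 did so through 4X, with a mean of 2.01 FPKM in 4X and of 0.994 FPKM in 2X. Its positive log2 fold change is therefore not independent of the limit. No member was called at an adjusted p under 0.05, and 0 of 10 had an unadjusted p under 0.05, where 0.0883% and 14.3% of all genes tested passed these limits. In 0 of 10 genes did the libraries of the ploidies not overlap, against 20.1% of the genes tested. The adjusted p ranged from 0.526 to 0.936 (limma). Log2 fold changes were positive in 9 genes and negative in VIT_13s0019g02780, with a median of 0.28 over the 10 genes and 0.01 over all genes tested.

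VIT_13s0019g03000 had the largest log2 fold change, 1.18 (SE 0.74, 95% interval -0.59 to 2.94, adjusted p = 0.526 from limma), and a mean ratio of 3.27. VIT_13s0019g02930 had 1.03 (SE 0.74, 95% interval -0.73 to 2.79, adjusted p = 0.590 from limma), and its means were 15.8 ± 6.27 FPKM (SD, n = 3) for 2X and 44.1 ± 39.4 FPKM (SD, n = 3) for 4X. VIT_13s0019g02780 lay at -0.19 with a 95% interval from -1.69 to 1.32, although its mean FPKM was slightly higher in 4X. The other 7 genes had log2 fold changes between 0.16 and 0.53. Every interval included 0 and was wide enough to hold changes of more than 1 on the log2 scale in either direction, except downward in VIT_13s0019g02760, VIT_13s0019g02930, VIT_13s0019g03000 and VIT_13s0019g03090. A missing call therefore does not show equal levels.

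The direction depended on which pool was included. Without 4X replicate 2 the log2 fold change was positive in 10 of 10 genes, from 0.55 to 2.00, and without 2X replicate 3 it was so as well, from 0.06 to 1.35. Without 4X replicate 3 it was negative in 7 genes, down to -0.43 in VIT_13s0019g02780, and without 2X replicate 1 in 5 genes, down to -0.50 in the same gene. Without 4X replicate 1 it was negative in 4 genes, the lowest being -0.68 in VIT_13s0019g02780. Only VIT_13s0019g02930 and VIT_13s0019g03000 kept a positive value with any library left out, at least 0.31 and 0.42. Leaving out any single library called 0 of the 10 genes, while 4.16% of all genes tested were called without 4X replicate 1 and 0.0166% without 4X replicate 2, and the smallest adjusted p among them was 0.298 from limma, for VIT_13s0019g03000 without 4X replicate 2. In that comparison 5 of the 10 genes had an unadjusted limma p under 0.05, as had 12.1% of all genes tested, and with any other library left out 0 of the 10 did. Array weights, which put 84.3% of the weight of 4X on replicate 3 and 55.5% of that of 2X on replicate 1, the lowest 2X library in all 10 genes, gave calls for VIT_13s0019g02930 and VIT_13s0019g03000 (adjusted p = 0.0438 and 0.0359 from limma) and for 23.5% of all genes tested.

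**Figure D4:**
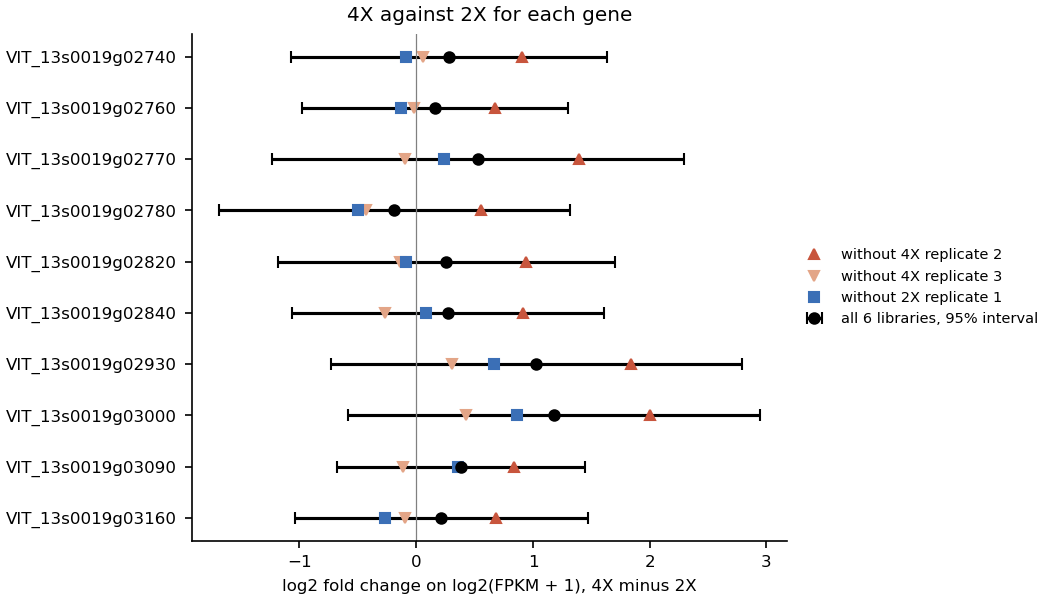
Log2 fold change on log2(FPKM + 1), 4X minus 2X (horizontal axis), for each of the 10 genes, with all 6 libraries in black (bars, 95% interval of limma) and with 4X replicate 2, 4X replicate 3 or 2X replicate 1 left out. All intervals include 0, and leaving out 4X replicate 2 puts all 10 genes above 0, from 0.55 to 2.00.

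Identifiers from VIT_13s0019g02700 to VIT_13s0019g03200 include 38 other genes, of which 16 were at 0 in all libraries and 16 were tested. No neighbour was called by limma, and 2 of the 16 had an unadjusted limma p under 0.05. Of all genes tested, 0.0883% and 14.3% passed these limits. The median log2 fold change of the 16 was 0.07. Most of them differed little between 4X replicates 2 and 3. From 4X replicate 2 to replicate 3 the difference of log2(FPKM + 1) was 1.38 to 3.15 in the 10 genes and had a median of 0.13 in the 16 neighbours, while the median of all genes tested was 0.00. These 2 libraries were already seen to be farthest apart in the 10 genes by their medians. A large difference in the 10 thus follows from the choice of libraries. VIT_13s0019g02730, next to the first member of the run, was listed at 105, 102 and 111 FPKM in 2X and at 89.6, 117 and 120 FPKM in 4X. VIT_13s0019g03170, next to the last member, was listed at 1131, 1395 and 1573 FPKM in 2X and at 1682, 836 and 1770 FPKM in 4X, more than the 10 genes together in every library. It followed the members' order of pools (r = 0.95 with their mean profile over 6 libraries). VIT_13s0019g02850, singled out after its values were seen, had 16.2, 29.8 and 43.1 FPKM in 2X and 38.5, 7.72 and 32.3 FPKM in 4X. For these last 2 genes the sources used here give no annotation.

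**Figure D5:**
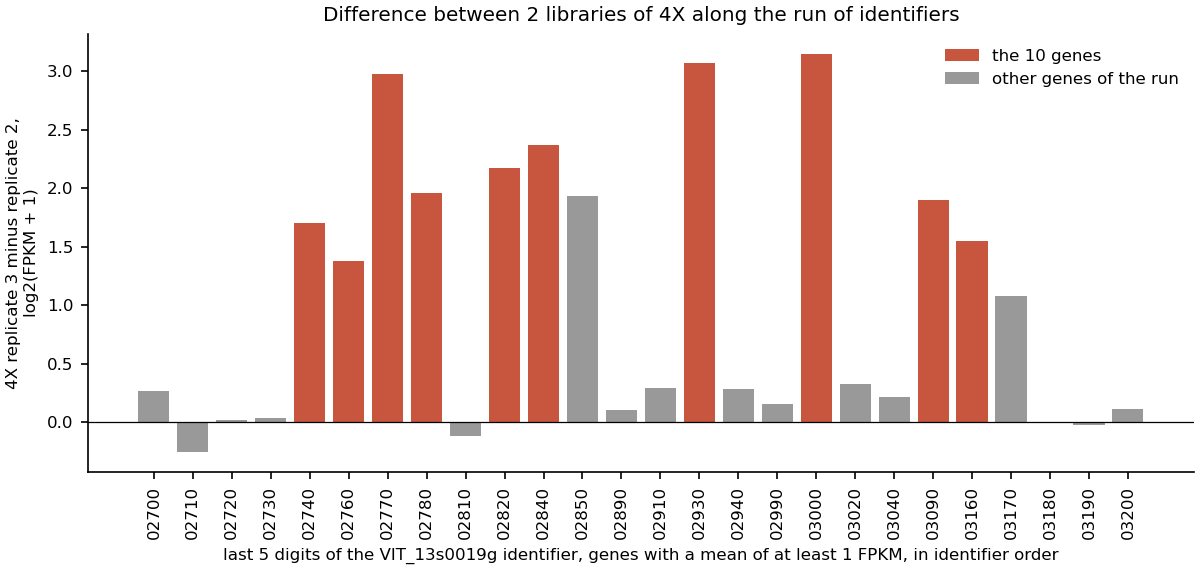
Difference of log2(FPKM + 1) between 4X replicates 3 and 2 (vertical axis) for the tested genes of the run, in the order of their identifiers (horizontal axis). The 10 genes, in red, range from 1.38 to 3.15, and apart from VIT_13s0019g02850 and VIT_13s0019g03170 the grey neighbours stay near 0. The libraries shown were already seen to be farthest apart in the 10 genes by their medians.

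Across the table, the genes most like the mean profile of the 10 were ranked by Pearson's r over the 6 libraries among 18109 other genes tested. The first 5 were VIT_04s0008g02470 (r = 1.00 after rounding), VIT_11s0016g01940, VIT_12s0121g00430, VIT_05s0020g02180 and VIT_06s0009g02140, the last at 0.98. With 6 libraries, 37 genes exceeded an r of 0.95. Most of these 5 varied far less in level than the members. VIT_11s0016g01940 ranged from 44.3 to 55.2 FPKM, a highest library 1.25-fold above the lowest. VIT_12s0121g00430, in contrast, was listed at 0 in 2X replicate 1 and 4X replicate 2 and at 19.3 FPKM in 4X replicate 3.

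The unfolded protein response of the endoplasmic reticulum is a separate arm of protein quality control, in which chaperones of that compartment are induced. The study's table of GO terms lists 11 genes for response to endoplasmic reticulum stress, 6 of them also for response to unfolded protein. The study chose them as increased on these same libraries, so their direction is not independent evidence. All 11 were tested, 0 were called by limma, and 7 had an unadjusted p under 0.05, where 14.3% of all genes did. Their median log2 fold change was 0.58. The largest were those of VIT_09s0018g00240, at 1.17 (adjusted p = 0.473 from limma), and of VIT_03s0038g03540, at 0.98 (adjusted p = 0.168 from limma). VIT_09s0018g00240 was at 64.9 FPKM in 4X replicate 1 and at 9.81 and 13.1 FPKM in replicates 2 and 3 of the same ploidy. Relative to the 2X mean, their median difference on the log2 scale was 0.61, 0.44 and 0.73 in 4X replicates 1, 2 and 3. The same medians of the 10 small heat shock protein genes were 0.83, -0.91 and 1.20. By these medians replicate 2 was the lowest of 4X and replicate 3 the highest in both lists, while the position of replicate 2 relative to 2X differed. Single genes of the 11 did not all keep this order. VIT_03s0038g03540, for example, was at 7.71, 9.26 and 9.05 FPKM in 4X replicates 1, 2 and 3. In 4X replicate 2, 9 of the 11 genes were above every 2X library, as were 33.9% of all genes tested, while 7 of the 10 small heat shock protein genes were below every 2X library, as were 28.2% of all genes tested. 4X replicate 2 was already seen to be the lowest 4X library of all 10 genes, and the 11 were chosen as increased. Both counts therefore depend in part on selection, and this difference between the lists was not tested.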

How the data were processed

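Terminal buds were sequenced in 3 libraries of 2X and 3 of 4X. The reads were trimmed with the FASTX-Toolkit and aligned to the grapevine genome that Ensembl Plants provides with TopHat2 2.0.14 and Bowtie2, and the submitters' processing notes also name Cufflinks 2.2.1. The authors deposited FPKM per gene and library. Genome build, strand handling, scaling between libraries and the division of multiply mapped reads are not given in the sources used here.

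Samples were grouped by ploidy from their titles. Cufflinks needs the reads, so 4X was compared with 2X by limma (version 3.58.1, R version 4.3.3) with a variance trend and equal weights. Input was log2(FPKM + 1) of genes averaging 1 FPKM or more, and 0 columns of values were left out. The p-values set the difference between the ploidies against the spread between these pools. Summaries used Python 3.11.15, pandas 2.3.3 and numpy 2.4.6. The method was tested on simulated data. The simulation drew noise independently for each gene, with the same spread in both ploidies. It therefore does not cover libraries that stand apart or a wider spread in 4X.

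The members and lists were chosen with earlier results of these data known. Named genes are the 10 members, the tested neighbours next to either end of the run, the 5 genes most like the members' mean profile, and the 2 unfolded protein genes with the largest log2 fold change. Outside this rule, actin, KNAP2 and HAT22 are named as checks, and VIT_13s0019g02850 and the genes on chromosome 4 beginning VIT_04s0008g01 were named after their values were seen. A list of other heat shock genes and a comparison of sequences were planned and not run, since the reference gene table matched 0 identifiers. Alternatives were another pseudocount, other filters and scalings, no trend, a replicate block, array weights and leaving out each library.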

Additional observations from a re-analysis of the deposited data

How the results depend on the processing

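With a pseudocount of 0.1, no filter, a filter on either ploidy, median scaling, quantile normalization, no trend or the replicate block, 0 of the 10 genes were called, and each kept the sign of its log2 fold change. Array weights called 2 of the 10, and VIT_13s0019g02780 turned from -0.19 to 0.36. With each library left out, the log2 fold change ranged from -0.12 to 0.91 for VIT_13s0019g02740, -0.17 to 0.67 for VIT_13s0019g02760, -0.10 to 1.39 for VIT_13s0019g02770, -0.68 to 0.55 for VIT_13s0019g02780, -0.14 to 0.94 for VIT_13s0019g02820, -0.27 to 0.92 for VIT_13s0019g02840, -0.12 to 0.83 for VIT_13s0019g03090 and -0.26 to 0.68 for VIT_13s0019g03160. The cause was not tested. Of all genes tested, 16 were called by limma, 4259 with array weights, and 0 to 754 with a library left out. The 754 calls came without 4X replicate 1, and at most 3 genes were called without any other library. With the replicate block 0 of all genes were called. The deviations of same-numbered libraries correlated at -0.01, -0.05 and 0.09, and those of other pairs at -0.13 to 0.13. The shared numbers thus gave no sign of pairing, which with 3 libraries per ploidy does not exclude it. Of the 11 unfolded protein genes, array weights called 10, and 0 to 1 were called with a library left out, the 1 call coming without 4X replicate 1. The median SD ranged from 0.11 to 0.72 in 2X and from 0.46 to 1.46 in 4X with a library left out, and a pseudocount of 0.1 gave 1.58 in 4X. With 3 pools per ploidy and no counts, differences as large as the spread between pools, or larger, could go without a call.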

Other observations

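The lowest libraries and the wide spread seen in the 10 genes also occurred together elsewhere in the table. Of the 18119 genes tested, 69 had 2X replicate 1 and 4X replicate 2 lowest in their ploidy together with a distance of at least 2-fold in 2X and 3-fold in 4X. These limits were set after the members' values were seen, and no test was made. The 69 include 8 of the 10 genes, 1 neighbour (VIT_13s0019g02850) and 60 genes elsewhere, of which 20 were listed at 0 in some library. Among the 60, the highest library was 4X replicate 3 in 19 genes and 4X replicate 1 in 23. In the others it was a 2X library, which was so in none of the 10 genes.

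Several of them lie in a run of identifiers on chromosome 4, VIT_04s0008g01500 to VIT_04s0008g01590, singled out after this listing, for which the sources used here give no annotation. Of its 10 identifiers 8 were tested and 5 had the pattern. VIT_04s0008g01520 was at 27.5, 59.4 and 60.5 FPKM in 2X replicates 1, 2 and 3 and at 84.2, 24.5 and 411 FPKM in the 4X replicates. VIT_04s0008g01590 was at 42.9, 61.7 and 115 FPKM in 2X and at 74.3, 13.9 and 344 FPKM in 4X. VIT_04s0008g01580 was the most abundant of the run, with 125, 200.1 and 205 FPKM in 2X and 355, 123 and 459 FPKM in 4X. It is not among the 5 with the pattern, since its 2X libraries spanned only 1.63-fold. None of the 8 was called between the ploidies, and their adjusted p ranged from 0.413 to 0.986 (limma). In all 3 named genes 4X replicate 3 was the highest library and 4X replicate 2 the lowest, as in VIT_13s0019g02770, VIT_13s0019g02820, VIT_13s0019g02840 and VIT_13s0019g03090.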
